A study of Mus musculus with 8 samples.

Results

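The mouse Cyp2d family was followed through the developing kidney by 7 members, Cyp2d9, Cyp2d10, Cyp2d11, Cyp2d12, Cyp2d22, Cyp2d26 and Cyp2d40, taken by symbol from the 32285 genes of the count matrix. The features hold 8 Cyp2d genes in all, and the eighth, Cyp2d34, is given beside the members. Kidneys of 4 male embryos, labelled E17.5 (the methods give a later day), were sequenced as 1 pool. Mice 1 and 2 were Trim28Δ/Δ, in which a Six2-EGFP/cre transgene deletes the floxed segment of Trim28 in nephron progenitors and so in the nephron cells that descend from them, while stroma, vessels and the ureteric tree have another origin. Mice 3 and 4 were Trim28f/f controls with the same floxed alleles, and whether they carried cre is not stated in the sources used here. The study asked how loss of TRIM28, a co-repressor that is recruited to DNA by KRAB zinc-finger proteins, changes gene expression in each cell type of the kidney.

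Cytochrome P450 enzymes of the CYP2D family are membrane-bound haem proteins of the endoplasmic reticulum that oxidise drugs, steroids and other lipophilic compounds with electrons passed on by the reductase POR. They are best known from the liver, and the proximal tubule (PT) is the kidney segment richest in this kind of enzyme. Humans keep a single active gene, CYP2D6, whereas the mouse genes form a tandem array. In adult mouse liver Cyp2d9, a testosterone 16-alpha hydroxylase, is a classical male-limited gene, and KRAB zinc-finger genes of the Rsl locus restrain such male-limited genes in females. In the GENCODE annotation of GRCm38 the members lie on chromosome 15 between bases 82370527 and 82794294, a stretch of 423768 bases. Chromosome 15 carries 18 annotated Cyp2d genes, of which 8 are protein coding and 10 are pseudogenes. Cyp2d22 occupies one end of the array (82370527 to 82380260, minus strand) and Cyp2d26 the other (82790101 to 82794294, minus strand). Cyp2d12 lies between them (82555072 to 82560403, plus strand).

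Because the members are close relatives, 3′ ends of annotated transcripts were compared. For each gene this covered transcripts of a single annotated type only, which can leave out the coding ones. The longest transcript covered was 859 bases for Cyp2d12 and 525 bases for Cyp2d26. No 90-base window in the last 500 bases of the transcripts covered for Cyp2d12, Cyp2d22 or Cyp2d26 was shared with another annotated gene. Whether the coding 3′ ends that the assay reads are unique is not settled by this comparison. For Cyp2d9, Cyp2d10, Cyp2d11, Cyp2d40 and Cyp2d34 the share was between 1.95% and 3.65% of windows, so counts of these genes may be split with a copy. The RefSeq table of GRCm38.p6 promoters holds 5 members, Cyp2d9, Cyp2d10, Cyp2d11, Cyp2d26 and Cyp2d40. The 250 bases before the start are shown for Cyp2d26, the member with the most counts in these cells, and for Cyp2d10 and Cyp2d9, which had almost none.
Cyp2d26 (chr15:82794246-82794495, minus strand): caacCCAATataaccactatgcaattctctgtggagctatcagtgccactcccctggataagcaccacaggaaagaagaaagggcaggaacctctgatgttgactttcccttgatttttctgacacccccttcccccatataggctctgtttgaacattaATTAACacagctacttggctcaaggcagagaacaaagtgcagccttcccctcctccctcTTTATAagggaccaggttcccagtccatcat
Cyp2d10 (chr15:82407195-82407444, minus strand): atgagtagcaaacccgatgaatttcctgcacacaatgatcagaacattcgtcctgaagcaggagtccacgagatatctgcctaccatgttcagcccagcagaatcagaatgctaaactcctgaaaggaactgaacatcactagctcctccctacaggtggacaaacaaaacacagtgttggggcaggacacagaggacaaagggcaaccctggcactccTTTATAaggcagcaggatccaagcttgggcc
Cyp2d9 (chr15:82452127-82452376, plus strand): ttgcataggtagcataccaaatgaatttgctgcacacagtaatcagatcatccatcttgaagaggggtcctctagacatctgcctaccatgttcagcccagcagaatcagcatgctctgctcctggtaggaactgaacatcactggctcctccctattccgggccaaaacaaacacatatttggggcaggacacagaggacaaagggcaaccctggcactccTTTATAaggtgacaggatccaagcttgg
Capitals mark matches to the TATA box letters TATAAA, to the HNF1-type letters GTTAAT and to the CCAAT box, searched on both strands, and these matches do not overlap each other. The TATA box match reads TTTATA here, its opposite strand. It lies at -31 in Cyp2d26 and Cyp2d10 and at -28 in Cyp2d9, counted from the annotated start, and a TATA box match was found in all 5 promoters against 13.0% of 27025 RefSeq promoters. The HNF1-type letters, read from the opposite strand as ATTAAC, were found at -90 in Cyp2d26 alone among the 5, against 6.52% of all promoters. CCAAT was found in Cyp2d11, Cyp2d26 and Cyp2d40, against 34.5% of all. The 3 promoters of Cyp2d9, Cyp2d10 and Cyp2d11 were 75.8% to 82.3% identical to one another and 50.2% to 51.1% identical to that of Cyp2d26. The HNF4 letters CAAAGTCCA (0.381% of all promoters), the letters AGGTCA of an HNF4 direct repeat (13.8%) and the GC box letters GGGCGG (32.9%) were searched in the same way and had no match in these windows of the 5. A match describes letters only, and binding was not measured.

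Cells were assigned to mice by their tags, which left 1322, 1503, 2695 and 1837 cells for mice 1 to 4, with medians of 16507 to 17299 unique molecular identifiers (UMIs) per cell. The number of cells per mouse depended on the method, with 2568 to 3469 cells for mouse 3. Clusters were named from marker genes, and the 863 PT-like cells (267, 279, 142 and 175 in mice 1 to 4) had Fbp1, Gsta2, Nat8f1 and Spp2 among their leading genes. The 12 PT markers summed to 9100 to 10597 UMIs per 1000000 (CPM) in the PT-like cells of each mouse. Since Cyp2d genes are known from liver, hepatocyte markers were checked, and Ahsg was at 0 in the PT-like cells of all 4 mice and Alb in those of 3. The hepatocyte list as a whole, which includes genes that PT cells make, summed to 295 to 302 CPM in Trim28Δ/Δ and 420 to 423 CPM in Trim28f/f mice, and its part in the results was not tested. Marker sums of other types were also lower in the PT-like cells of both Trim28Δ/Δ mice than in those of both controls. These were NPC markers (39.0 and 31.3 against 51.5 and 64.7 CPM), early nephron markers (74.8 and 94.3 against 107 and 127 CPM), cycling markers (154 and 131 against 262 and 158 CPM), erythroid markers (1769 and 1506 against 2619 and 2232 CPM) and adrenal cortex markers (10.6 and 10.5 against 13.1 and 11.5 CPM). Loop of Henle markers (72.6 and 69.5 against 66.4 and 36.3 CPM) and immune markers (48.9 and 33.5 against 21.4 and 32.9 CPM) were higher in both. At most 1 NPC marker was at 0 in a mouse. Their part in the results was not tested either. Full separation of 2 against 2 mice reaches no lower than p = 0.333 in a two-sided exact permutation test over mice. The share of all genes that separate in this way is not given here. Separation alone, here and below, is therefore not read as a result. Free RNA, judged from haemoglobin, made up 2.12% to 2.32% of the UMIs of PT-like cells. Trim28 itself stood at 22.7 and 25.4 CPM in the PT-like cells of mice 1 and 2 and at 59.3 and 76.4 CPM in those of mice 3 and 4. It was called lower in 8 of 18 classes and higher in 0. The reads come from the 3′ end, outside the deleted segment, so this count does not check the deletion itself.

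Cyp2d12 was higher in Trim28Δ/Δ PT-like cells, and it was the only member called there. Its level, in CPM of the UMIs summed over the PT-like cells of a mouse, was 9.49 in mouse 1 and 9.39 in mouse 2, against 2.09 in mouse 3 and 0.390 in mouse 4. These levels rest on 66, 70, 8 and 2 UMIs. The Trim28Δ/Δ mice were alike and both lay above the Trim28f/f mice, which differed more from each other. Pooled over the mice, 136 UMIs (9.44 CPM) stood against 10 (1.12 CPM), a ratio of 8.46 with an exact 95% interval of 4.46 to 18.03. The interval covers counting error only and treats UMIs as independent. It leaves out that many of them came from the same few cells, so it is too narrow. In edgeR's quasi-likelihood test on sums per mouse, the log2 change was 3.03 (SE 0.49, n = 2 against 2 mice), with a Benjamini-Hochberg adjusted p of 0.045 over 12216 genes. By p it ranked 63 among the 65 genes called, which were 0.532% of those tested. The call sits at its threshold: the adjusted p was 0.256 without mouse 1, 0.432 without mouse 2 and 0.055 when no Cyp2d gene entered the clustering, with log2 changes of 2.996, 3.02 and 3.12. Leaving out a control moved the size instead, to 4.53 without mouse 3 (SE 0.58, adjusted p = 1.99e-06) and to 2.15 without mouse 4 (SE 0.42, adjusted p = 0.00279), in fits that called 416 and 1280 genes.

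**Figure D1:**
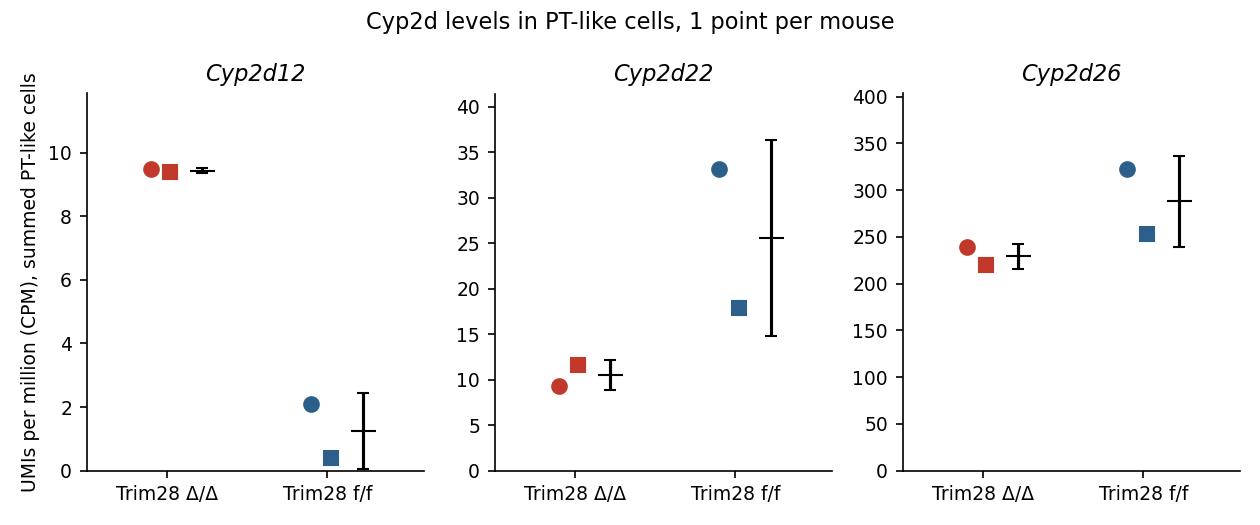
Levels of Cyp2d12, Cyp2d22 and Cyp2d26 in PT-like cells in CPM, each panel with its own linear axis from 0. Circles are mice 1 and 3, squares mice 2 and 4, and the bars show mean ± SD of 2 mice. Cyp2d12 was at 9.49 and 9.39 CPM in Trim28Δ/Δ and at 2.09 and 0.390 CPM in Trim28f/f, and Cyp2d22 and Cyp2d26 had both Trim28Δ/Δ mice below both Trim28f/f mice. Such separation of 2 against 2 mice reaches no lower than p = 0.333 in a two-sided exact permutation test. The share of all genes that separate in this way is not given here.

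The Cyp2d12 transcripts of Trim28Δ/Δ mice sat in few cells. A UMI of Cyp2d12 was found in 27 of 267 PT-like cells of mouse 1 (10.1%) and in 21 of 279 of mouse 2 (7.53%), against 2 of 142 (1.41%) in mouse 3 and 2 of 175 (1.14%) in mouse 4. The shares did not overlap, and the difference of the means was 7.54 percentage points (exact permutation test over mice, two-sided, p = 0.333, the smallest that 2 against 2 mice allow). After each cell was thinned to 6800 UMIs the shares were 4.49%, 3.58%, 0.704% and 0.571%. For background, cycling cells, with a median depth of 24342 UMIs against 23611 in PT-like cells, held a UMI in 6 of 639 (0.939%, exact 95% interval 0.345% to 2.03%). Endothelial-like cells held one in 4 of 477 (0.839%) at 12689 UMIs and stroma-like cells in 1 of 363 (0.275%) at 10603 UMIs. Loop of Henle-like cells held one in 0 of 510 at 17875 UMIs, where 3 cells, the limit taken for a count of 0, would be 0.588%. The shares of the Trim28f/f PT-like cells, on 2 cells in each mouse, lie within the interval of the cycling cells. That interval pools cells of all 4 mice and both genotypes, so no conclusion on the Trim28f/f mice is drawn from it. Free RNA by the haemoglobin estimate would give 0.0338 and 0.0308 CPM of Cyp2d12 in the PT-like cells of mice 3 and 4, but for Cyp2d26 the same estimate lies below the levels counted in classes outside the proximal tubule (given with the classes), so it may be too low.

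Among the 48 Trim28Δ/Δ PT-like cells with Cyp2d12, 22 had a single UMI, 18 had 2 to 4 and 8 had 5 or more. Those 8 cells held 70 of the 136 UMIs (51.5%), and the highest cell held 16. Cyp2d22 offers a measure of the same depth, since its 152 UMIs in the same Trim28Δ/Δ cells were spread over 113 cells with at most 3 in any of them. The variance over the mean of UMIs per cell was 5.95 for Cyp2d12 and 1.34 for Cyp2d22. The abundant Cyp2d26 reached 492 of the 546 cells. In mouse 3, 7 of the 8 Cyp2d12 UMIs came from 1 cell, so the level of that control mouse rests on that cell. No Trim28 UMI was counted in it, but a Trim28 UMI was found in only 94 of the 142 PT-like cells of mouse 3 (66.2%).

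Other readouts were set side by side in the Trim28Δ/Δ PT-like cells with and without Cyp2d12. In mouse 1 those with a Cyp2d12 UMI had 259 CPM of Cyp2d26 and 12.1 CPM of Cyp2d22, against 236 and 9.02 CPM in those without. In mouse 2 the values were 235 and 12.3 CPM against 218 and 11.6 CPM. Trim28 stood at 20.1 CPM in mouse 1 and 20.5 CPM in mouse 2 in cells with Cyp2d12, and at 23.0 and 25.9 CPM in cells without. Slc34a1, a PT marker, stood at 955 CPM in mouse 1 and 805 CPM in mouse 2 in cells with Cyp2d12, and at 801 and 675 CPM in cells without. Scrublet marked 3 of 27 and 1 of 21 of the cells with Cyp2d12 as doublets in mice 1 and 2, and 16 of 240 and 18 of 258 of those without. These values over cells are descriptions with no test.

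**Figure D2:**
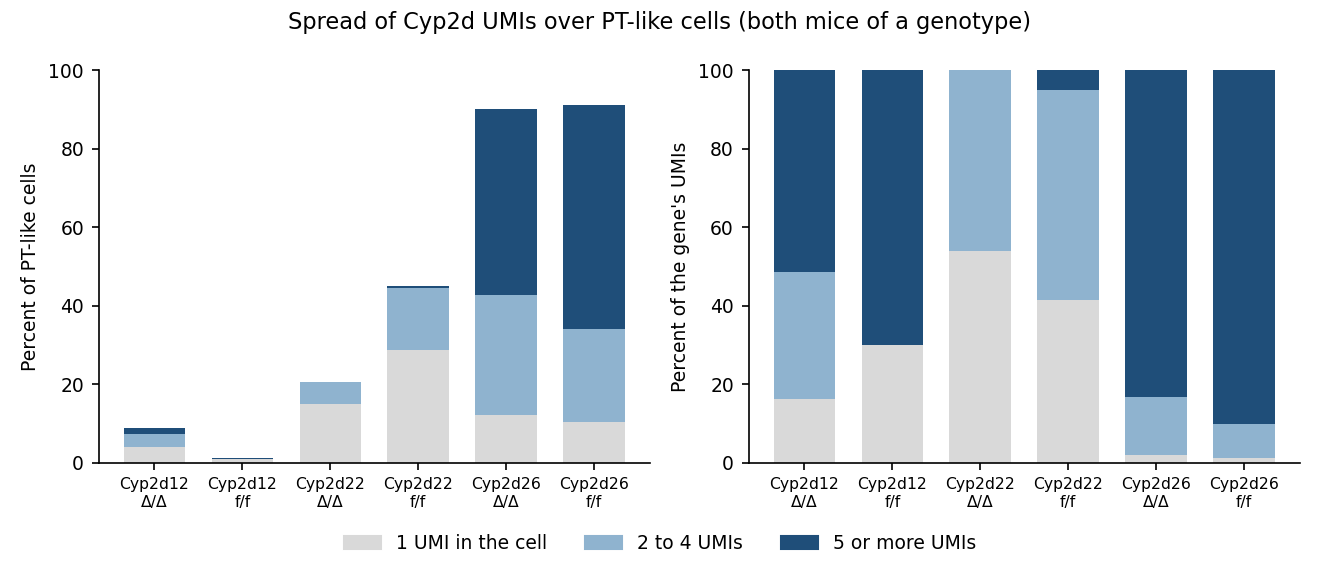
Left, percent of PT-like cells with 1, 2 to 4, or 5 or more UMIs of each gene, and right, percent of the gene's UMIs held by such cells, for the 546 Trim28Δ/Δ (Δ/Δ) and 317 Trim28f/f (f/f) cells. In Δ/Δ cells 51.5% of the Cyp2d12 UMIs sat in the 8 cells with 5 or more, whereas no Cyp2d22 UMI did. The f/f bar of Cyp2d12 rests on 10 UMIs.

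Cyp2d22, the member nearest to one end of the array and a relative with broad expression, stood lower in Trim28Δ/Δ PT-like cells but did not pass the test. The Trim28Δ/Δ mice 1 and 2 had 9.35 and 11.7 CPM, and the controls 33.2 and 17.9 CPM, from 65, 87, 127 and 92 UMIs. Both Trim28Δ/Δ mice lay below both controls, and the controls differed from each other by more than the genotypes' nearest mice did. The log2 change was -1.27 (SE 0.30, edgeR adjusted p = 0.145). The share of PT-like cells with a UMI was 19.5% and 21.9% against 58.5% and 34.3%, and thinned cells gave 4.12% and 8.96% beside 20.4% and 13.7% (exact permutation p = 0.333 for both). DESeq2, which called 0.81% of all genes there, called it lower (-1.29, adjusted p = 0.047), edgeR with no filter on low counts, which called 2.82%, did so too (-1.25, adjusted p = 1.67e-06), as did edgeR without mouse 4 (-1.67, adjusted p = 3.06e-05), a setting that called 1280 genes or 9.9%, whereas without mouse 3 the change was -0.77.

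Cyp2d26 was the main Cyp2d transcript of the PT-like cells in every mouse. The Trim28Δ/Δ mice 1 and 2 had 239 and 220 CPM, and the controls 323 and 254 CPM, on 1660, 1638, 1235 and 1301 UMIs. The lower control lay close to the higher Trim28Δ/Δ mouse, and the log2 change of -0.34 (SE 0.14) had an edgeR adjusted p of 0.49. At least 1 UMI was found in 91.4% and 88.9% of Trim28Δ/Δ and in 97.9% and 85.7% of Trim28f/f PT-like cells, so the genotypes overlapped. The sign of the change was not stable, with 0.14 when cells were assigned by the share of their highest tag and 0.029 at a minimum of 2500 UMIs per cell.

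The remaining members were near 0. Cyp2d11 and Cyp2d40 had no UMI in any of the 7357 cells, and 3 UMIs, the limit that a count of 0 allows, would be 0.402 to 0.784 CPM in the PT-like cells of a mouse. Cyp2d10 had 2 UMIs in all, 1 in a PT-like cell of mouse 1 and 1 in a PT-like cell of mouse 2. Cyp2d9, the male-limited liver gene, had 7 UMIs, 4 in Trim28Δ/Δ and 3 in Trim28f/f cells, of which 1 was in a PT-like cell. Cyp2d34, the coding gene next to Cyp2d12, had 3 UMIs in the PT-like cells of each Trim28Δ/Δ mouse and 0 in those of the controls. These 4 members and Cyp2d34 did not pass the filter on low counts. With no filter Cyp2d9, Cyp2d10 and Cyp2d34 were tested and not called (edgeR adjusted p = 0.888, 0.888 and 0.706), Cyp2d11 and Cyp2d40 had no count to test.

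Of the 7 members, 3 passed the filter on low counts in PT-like cells, and 1 was called, higher in Trim28Δ/Δ mice. Over all genes tested there, 55 were called higher (0.45%) and 10 lower (0.0819%). The member called, Cyp2d12, passed the filter through the Trim28Δ/Δ mice, where it is high (66 and 70 UMIs). The controls alone, with 8 and 2 UMIs, would not have passed it. That it passed the filter is therefore no support for the call.

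**Figure D3:**
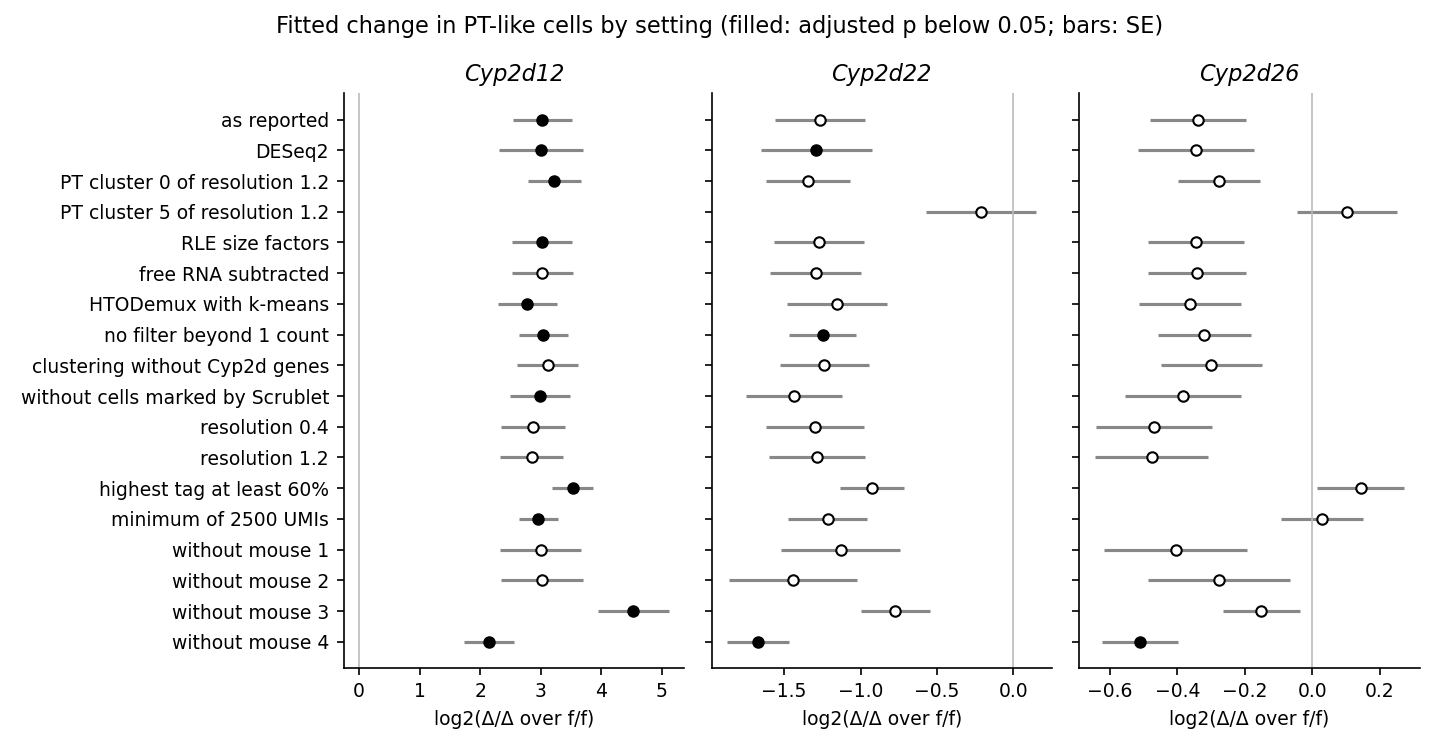
Fitted log2 change (Trim28Δ/Δ over Trim28f/f, SE as bars) of Cyp2d12, Cyp2d22 and Cyp2d26 in PT-like cells under each setting, with filled points where the adjusted p was below 0.05. Cyp2d12 kept its direction in every setting in which it was tested, from 2.15 without mouse 4 to 4.53 without mouse 3. Cyp2d22 was negative throughout, and Cyp2d26 lay on both sides of 0.

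Across the kidney the 3 measurable members had different patterns. The genes entered the clustering, so levels by class are described with no test, and clustering without any Cyp2d gene gave PT-like means of 254 CPM for Cyp2d26, 17.9 for Cyp2d22 and 5.38 for Cyp2d12. Of 7422 Cyp2d26 UMIs, 78.6% lay in PT-like cells, which are 863 of the 7357 cells. The mean over the 4 mice was 259 ± 44.9 CPM (SD) in PT-like cells and 31.0 ± 6.57 CPM in cells of the early proximal tubule (ErPT-like), with no overlap of mice between these classes. Erythroid-like cells, which should lack the gene, had 28.8 ± 15.2 CPM and held a UMI in 20.4% of cells at a median depth of 9329 UMIs. ErPT-like cells held one in 28.7% at 16944 UMIs, and the mice of these classes overlapped. All other named classes had means of 5.52 to 16.3 CPM. For comparison, the free RNA profile held 66.7 CPM of Cyp2d26, which by the haemoglobin estimate would give 1.41 to 3.497 CPM in a class of a mouse, erythroid-like cells left out.

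Of the 181 Cyp2d12 UMIs, 146 (80.7%) lay in PT-like cells, and the 35 others were spread over 10 classes. Within Trim28Δ/Δ cells 136 of 149 UMIs (91.3%) were PT-like, within Trim28f/f cells 10 of 32 (31.2%), where the shares of Cyp2d26 were 85.5% and 71.1%. Such shares also depend on the number of PT-like cells. These were 267 of 1322 and 279 of 1503 cells in mice 1 and 2, and 142 of 2695 and 175 of 1837 in mice 3 and 4. ErPT-like cells had 0, 5, 2 and 3 UMIs in mice 1 to 4, or 0, 2.17, 0.255 and 0.939 CPM, with the genotypes overlapping. Their mean of 0.841 CPM stood next below that of PT-like cells, but with no Cyp2d gene in the clustering it was 0.450 CPM on 6 UMIs, below endothelial-like cells (0.580 CPM). Nephron progenitor-like (NPC-like) cells had 4 UMIs, all from mouse 4.

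Cyp2d22 was counted most in mesenchymal cells. Its mean was highest in mural-like cells (45.2 ± 19.5 CPM), stroma-like cells (40.4 ± 13.0 CPM) and the unnamed cluster 14, led by Pdgfrb, Ebf1 and Gucy1a1 (29.96 ± 28.3 CPM). Endothelial-like cells (18.9 ± 10.8 CPM) and PT-like cells (18.03 ± 10.7 CPM) came next, and the mice of these neighbouring classes overlapped. Collecting duct-like cells had 3.57 ± 1.94 CPM. Mouse 3 stood above mouse 4 in 13 of the 18 classes tested, with 72.2 against 15.4 CPM in cluster 14 and 35.1 against 13.8 CPM in endothelial-like cells, which do not descend from nephron progenitors.

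**Figure D4:**
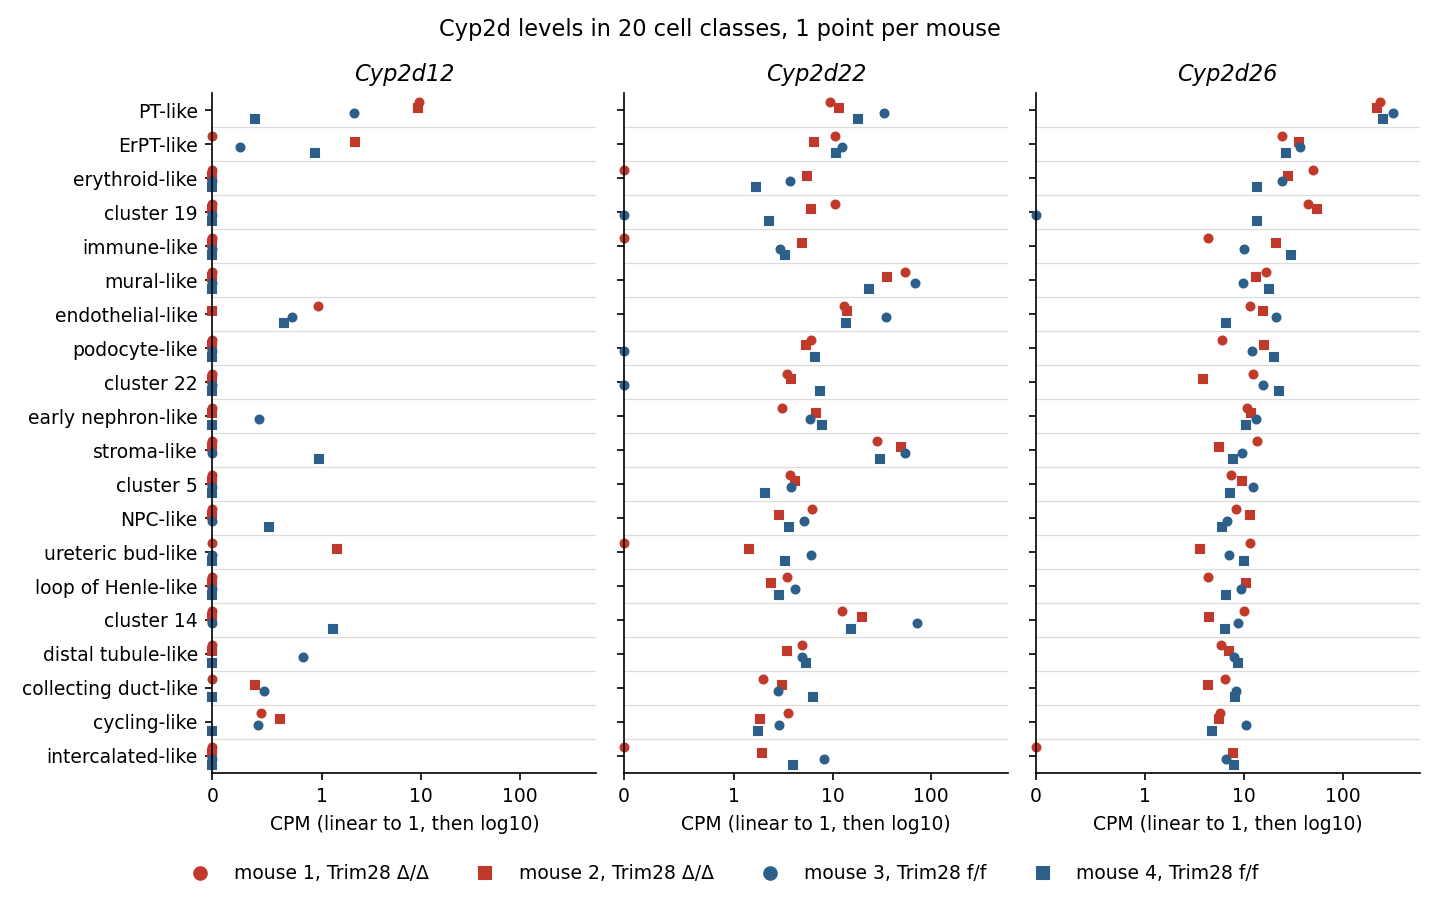
Levels in CPM of Cyp2d12, Cyp2d22 and Cyp2d26 in 20 classes, 1 point per mouse, on an axis that is linear from 0 to 1 and logarithmic above, with classes ordered by the mean of Cyp2d26. Cyp2d26 peaks in PT-like cells at 220 to 323 CPM, and Cyp2d12 is above 3 CPM only in the PT-like cells of the 2 Trim28Δ/Δ mice. Cyp2d22 has its highest means over mice in mural-like and stroma-like cells, and its highest single point in cluster 14 at 72.2 CPM.

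Outside PT-like cells, 0 of 18 tests of a member in a class were called by edgeR, and DESeq2 called 0. Of all genes tested edgeR called 1.26% in NPC-like cells, 0.795% in the unnamed cluster 5, 0.378% in ErPT-like, 0.296% in early nephron-like, 0.254% in loop of Henle-like, 0.214% in cycling, 0.0691% in immune-like and 0.034% in erythroid-like cells, and 0.0% in the 6 other classes with a member tested. An unadjusted p under 0.05 was reached by 2, and both concerned Cyp2d22, which was lower in Trim28Δ/Δ mice by a log2 change of -1.59 (SE 0.68, adjusted p = 0.75) in cluster 14 and of -0.995 (SE 0.43, adjusted p = 0.889) in endothelial-like cells. Without mouse 4, which leaves mouse 3 as the lone control, both were called, at -2.21 and -1.47, in a setting that called 4.25% and 9.81% of all genes in these classes. Without mouse 3 the change in endothelial-like cells was -0.047 (SE 0.43, adjusted p = 0.9998), and Cyp2d22 in cluster 14 did not pass the filter. Cyp2d12 did not pass the filter in any class other than PT-like cells.

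Whether the change in PT-like cells differed from that in other nephron classes was tested as an interaction with the mouse as a block. For Cyp2d12 the change in ErPT-like cells minus that in PT-like cells was -1.41 (SE 1.46, edgeR adjusted p = 0.925). For NPC-like cells it was -6.82 (SE 3.02, adjusted p = 0.448), a size that depends on the prior count since mice 1 to 3 had no Cyp2d12 UMI in these cells. Without mouse 3 it was -8.86 (adjusted p = 0.0215), where 3.26% of all genes were called. In loop of Henle-like cells all 4 mice were at 0 UMIs of Cyp2d12 and no error can be given. Cyp2d22 gave 0.74 (SE 0.42), 1.07 (SE 0.59) and 1.03 (SE 0.51) for ErPT-like, NPC-like and loop of Henle-like cells, with adjusted p of 0.834, 0.591 and 0.68. Of 9 such tests of a member 0 were called by edgeR and 2 had an unadjusted p under 0.05, where 0.0946%, 1.5% and 0.0947% of all genes were called for ErPT-like, NPC-like and loop of Henle-like cells. The other of these was Cyp2d26 in NPC-like cells (0.89, SE 0.33, adjusted p = 0.308). A restriction of the Cyp2d12 change to PT-like cells was therefore not shown by this test.

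At a finer clustering resolution (1.2), a split chosen after seeing the data, 2 clusters were named PT-like, called clusters 0 and 5 here (no relation to the unnamed cluster 5 above). They hold 590 and 409 cells and so are not a split of the 863 PT-like cells described so far. Cluster 0 carried more of the convoluted segment markers, such as the phosphate carrier Slc34a1 and the glucose carrier Slc5a2, which summed to 2270 to 3198 CPM by mouse against 531 to 975 CPM in cluster 5. Cyp2d26 was at 285, 271, 348 and 324 CPM in mice 1 to 4 in cluster 0 and at 87.4, 97.7, 86.7 and 84.1 CPM in cluster 5. Cyp2d12 was at 12.3, 12.6, 2.05 and 0.574 CPM in cluster 0 on 62, 62, 7 and 2 UMIs, so both Trim28Δ/Δ mice lay above both controls there. In cluster 5 it was at 1.01, 2.11, 2.63 and 0 CPM on 3, 8, 1 and 0 UMIs, too few to measure a difference. Cluster 0 held 183, 170, 127 and 110 cells and cluster 5 held 138, 173, 14 and 84, so values of mouse 3 in cluster 5 rest on few cells. Within cluster 0 alone the log2 changes were 3.22 for Cyp2d12 (SE 0.44, edgeR adjusted p = 0.0171, with 0.497% of all genes called), -1.34 for Cyp2d22 (adjusted p = 0.101) and -0.28 for Cyp2d26 (adjusted p = 0.479). Segment markers still differed between the genotypes within cluster 0. Convoluted markers summed to 2402, 2270, 2696 and 3198 CPM in mice 1 to 4, and straight segment markers to 936, 870, 423 and 684 CPM. The part of this difference in the fits of cluster 0 was not tested. Cyp2d22 in cluster 5 stood at 9.08, 8.72, 13.1 and 9.39 CPM on 27, 33, 5 and 20 UMIs, with a log2 change of -0.21 (SE 0.36, adjusted p = 0.944).

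None of the tested chromosomal neighbours of the array passed the test in PT-like cells. The count matrix holds 36 neighbours with a start within 500000 bases of the ends of the array, coding, antisense or long noncoding genes. Annotated pseudogenes of this stretch were not analysed here, so nothing is said of them. Of the 36, 21 were tested in PT-like cells, the nearest to Cyp2d12 being Ndufa6 with its start at -200750 bases. By edgeR or by DESeq2 0 were called, with 3 at an unadjusted p under 0.05. Of all genes tested edgeR called 0.532% and DESeq2 0.81%, so 0 calls do not set these 21 apart from other genes. The median log2 change of the tested neighbours was -0.0011, beside -0.00096 for all genes tested, and they ranged from -0.61 to 1.07. The most abundant, the respiratory chain subunit Ndufa6 beside Cyp2d22, stood at 852, 775, 997 and 882 CPM in mice 1 to 4. Smdt1, a regulator of the mitochondrial calcium uniporter, stood at 573, 517, 477 and 556 CPM. The genotypes overlapped for Smdt1, and both Trim28Δ/Δ mice lay below both controls for Ndufa6 (log2 change -0.22, SE 0.12, adjusted p = 0.615). Gm49431, the annotated antisense gene next to Cyp2d34, had no UMI in PT-like cells.

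**Figure D5:**
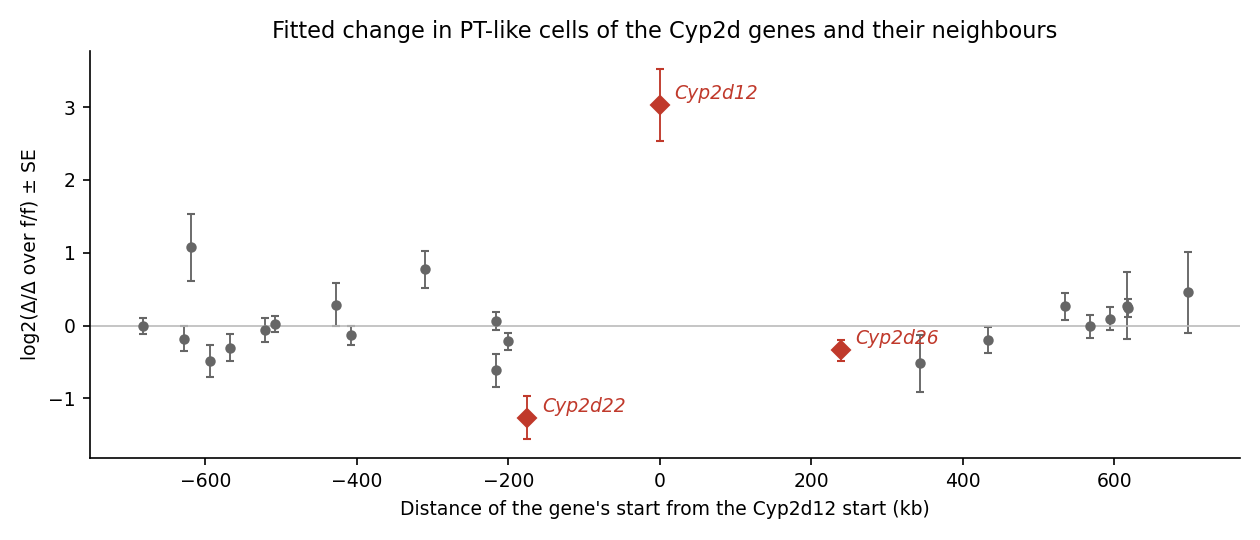
Fitted log2 change in PT-like cells (Trim28Δ/Δ over Trim28f/f, bars are SE) of the tested Cyp2d members (diamonds) and of the 21 tested neighbours (circles), against the distance of the gene's start from that of Cyp2d12 in kb. Cyp2d12 lies at 3.03, the neighbours range from -0.61 to 1.07, and Cyp2d22 lies at -1.27. The tested neighbour nearest to Cyp2d12 is Ndufa6, at -200750 bases, so nearer neighbours are not covered. Cyp2d34, at 65874 bases, did not pass the filter on low counts and is not shown.

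Among the other cytochrome P450 genes, 19 of 92 were tested in PT-like cells and 0 were called by edgeR or by DESeq2, with 2 at an unadjusted p under 0.05 and a median log2 change of 0.0035. Since edgeR called 0.532% and DESeq2 0.81% of all genes tested, 0 calls do not set these 19 apart from other genes. In CPM, which count 3′ ends and carry no length term, Cyp2d26 had the highest mean of all P450 genes (259 CPM). It was followed by Cyp51, the lanosterol demethylase of cholesterol synthesis (191 CPM), Cyp4a31, a fatty acid hydroxylase of the Cyp4a family (138 CPM), and Cyp2j5, an arachidonic acid epoxygenase (127 CPM). Their log2 changes were -0.016 (SE 0.14), -0.047 (SE 0.12) and 0.0035 (SE 0.13). Cyp2d22 and Cyp2d12 ranked 10 and 15 in this order.

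Genes that serve P450 enzymes or act after them gave 1 call. Of 10 genes for electron transfer and haem, all 10 were tested and 0 were called by edgeR or by DESeq2, with 2 at an unadjusted p under 0.05 and a median of 0.037. At shares of 0.532% of all genes called by edgeR and 0.81% by DESeq2, 0 calls do not set these 10 apart. Cyb5a, the cytochrome b5 that feeds electrons to P450 enzymes, stood at 937, 856, 869 and 761 CPM, with a log2 change of 0.13 (SE 0.12), and Por had 0.034 (SE 0.13). Of 30 genes of drug conjugation and flavin oxidation, 26 were tested and 1 was called by edgeR, beside 0.532% of all genes, with a median of 0.12. DESeq2 called 1, and 8 had an unadjusted p under 0.05, as did 1180 of the 12216 genes tested. That gene was Sult1c2, a cytosolic sulfotransferase, at 54.2 and 66.9 CPM in Trim28Δ/Δ against 11.8 and 19.7 CPM in Trim28f/f mice (log2 change 1.91, SE 0.23, edgeR adjusted p = 0.0104).

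Of 14 regulators known from liver and tubule, 13 were tested and 0 called by edgeR or by DESeq2, with 0 at an unadjusted p under 0.05 and a median of -0.20. Among them was Hnf4a, a nuclear receptor that drives many P450 genes (135, 145, 144 and 140 CPM, log2 change -0.025, SE 0.11). Of all genes tested edgeR called 0.532% and DESeq2 0.81%. In lists as short as those of this paragraph, 0 calls therefore do not set the genes apart from others. Of 7 genes of sex limitation only Rsl1, a KRAB zinc-finger gene, was tested, with 2.16, 2.68, 2.35 and 3.51 CPM in mice 1 to 4 and a log2 change of -0.31 (SE 0.41). C4a and Mup20, liver genes with male-limited expression, had at most 1 UMI per mouse. Of the 6 convoluted segment genes all were tested and 0 called by edgeR (median -0.38, 4 at an unadjusted p under 0.05, 1 called by DESeq2), and of the 6 straight segment genes 5 were tested and 0 called (median 0.57, 3 at an unadjusted p under 0.05, 0 called by DESeq2). The convoluted marker closest to the threshold was Slc34a1 (818, 688, 1261 and 1190 CPM, log2 change -0.71, SE 0.12, adjusted p = 0.0541), and the part of these markers in the Cyp2d26 values was not tested.

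Genes most like each member were ranked by Pearson's r of log2 CPM over 72 sums (18 classes in 4 mice) among 14851 genes, a description in which points share mice and the pool. Cyp2d26 followed the PT genes Nat8f1 (r = 0.90), Spp2 (0.89), Pck1 (0.89) and Fbp1 (0.88). Cyp2d22 was most like Prickle2 (0.77), Sept7 (0.74), Col4a2 (0.74), Col25a1 (0.74) and Selenom (0.73), a set that includes a basement membrane collagen. Cyp2d12 was most like Tex13b (0.79), Esd (0.70), Card14 (0.69), Nat8f5 (0.68) and Qdpr (0.68), but 51 of its 72 sums had no UMI, so these values rest on few sums.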

How the data were processed

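Kidney cells of 4 mouse embryos were pooled in 1 droplet library (10x Genomics 3′ v3.1) with 1 multiplexing tag per mouse. The authors counted UMIs with Cell Ranger (6.0.0 by the methods, 4 by the matrix header) and deposited raw counts for 32285 genes and 12 tags in 3921239 barcodes, without a selection of cells. The submitters' processing notes name GRCm38 and mm10, with no role given. The bulk RNA samples were not analysed here, nor were cells of 4 tags that the authors' list does not name.

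From these counts, 21386 barcodes with at least 6890 UMIs were taken as cells, and 19273 of them had 200 or more genes with mitochondrial UMIs no higher than 10%. Tags were called with HTODemux in Seurat 5.3.0 (quantile 0.99). Of 19272 cells with tag counts 4718 carried several tags, 2697 none and 4500 an unlisted tag, which left 7357. Scrublet marked 7.23% of these and 37.5% of cells with several tags; doublets among the 7357 were left in. Cells were clustered after SCTransform (3000 genes, 30 components, resolution 0.8) and named from fixed markers, with naming thresholds set after the clusters were seen.

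UMIs were summed per mouse and class. Classes with at least 10 cells in every mouse were tested with edgeR 4.0.16 (quasi-likelihood, TMM, filterByExpr, Benjamini-Hochberg over all genes tested, threshold 0.05). The code was also run on counts simulated from the means and dispersions that edgeR fitted to the PT-like sums. Such counts follow the model of the test, so this run cannot show whether calls hold for real mice. The SE of an edgeR log2 change, also in the figures, is the size of that change over the square root of the quasi-likelihood F statistic. For DESeq2 it is the SE of the fit. CPM are UMIs per 1000000 of a sum, without TMM. DESeq2 1.42.0, RLE factors, no filter, other tag calls, other clusterings, a lower UMI minimum, free RNA subtraction (from barcodes with 10 to 100 UMIs), removal of Scrublet calls and leaving out each mouse were alternatives. Named genes were the Cyp2d genes, Trim28, cluster markers, up to 8 called genes and up to 3 of the highest not called in each list, and the 5 genes most like each tested member. A few genes that this rule names are not reported here. Por, Rsl1, C4a, Mup20, Slc34a1, Slc5a2, Ahsg, Alb and Gm49431 were named after their values were seen. The members and lists were chosen with earlier results of these data known. The mice are separate embryos of 1 pool, so p-values rest on 2 against 2 mice, and intervals cover counting error only.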

Additional observations from a re-analysis of the deposited data

How the results depend on the processing

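The number of Cyp2d members called in PT-like cells was 1 as reported (Cyp2d12), 2 with DESeq2 or with no filter beyond 1 count (Cyp2d22 lower in addition), and 0 with free RNA subtracted, with no Cyp2d gene in the clustering, at resolution 0.4 and at resolution 1.2. It was 0 to 3 when a mouse was left out. At resolution 0.8 PT-like cells formed 1 cluster, so the separate fits used the 2 PT-like clusters of resolution 1.2, a choice made after seeing the data; they gave 1 call in cluster 0 and 0 in cluster 5, where Cyp2d12 could not be fitted. Cyp2d12 was higher in Trim28Δ/Δ mice in all 16 alternatives that gave it a value and was called in 10, with log2 changes of 2.15 to 4.53 and adjusted p from 3.42e-11 to 0.432. The calls that were lost had adjusted p of 0.0507, 0.0552, 0.0916 and 0.0818 for the 4 settings named, and the cause was not tested. Cyp2d22 was lower in all 17 alternatives and called in 3. Cyp2d26 turned to a positive log2 change in cluster 5 (0.10), with the highest tag at 60% or more (0.14) and at a minimum of 2500 UMIs (0.029), and was called in 1 of 17 alternatives, without mouse 4 (-0.51, adjusted p = 0.00682). Genes called in PT-like cells numbered 65 as reported, 99 with DESeq2, 110 with k-means tag calls, 118 at 2500 UMIs, 545 with no filter, 12 without mouse 1, 10 without mouse 2, 416 without mouse 3 and 1280 without mouse 4. In the other classes 0 calls of a member became 1 with no filter, and for the interaction the number stayed at 0. The share of all genes called with no filter outside PT-like cells is not given here, so that call is not read as a result about a member.

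Thinning removes UMIs from each cell, and it lowered the difference in the share of cells with Cyp2d12 from 7.54 to 3.40 percentage points. The mean shares were 8.82% and 1.28% in Trim28Δ/Δ and Trim28f/f mice with all UMIs, and 4.04% and 0.638% after thinning. For Cyp2d26 the difference of -1.66 points became 4.42 without mouse 3, and leaving out a mouse gave -7.75 to 4.42. No paired analysis was possible because the 2 genotypes share no mouse number and no label pairs the embryos. Where a mouse was left out, the lone mouse of its genotype was assumed to vary like the other pair. The Cyp2d12 comparison rests on 136 against 10 UMIs, and Cyp2d9, Cyp2d10, Cyp2d11 and Cyp2d40 did not pass the filter on low counts.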
